A study of Mus musculus with 16 samples.

Results

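The 8 genes described here encode factors that set or support the identity of the kidney's proximal tubule cell: Hnf4a, Ppargc1a, Esrra, Ppara, Rxra, Nr1h4, Pax8 and Maf. They were chosen by symbol, with earlier results of these data known, and each symbol occurred once among the 46078 genes of the deposited table. All 8 passed the filter on low values. RNA of whole mouse kidney was sequenced in 16 libraries, in 4 groups of 4. All mice were C57BL/6 and 20 weeks old, and all kidneys were perfused before harvest. BL_vehicle mice had no preconditioning and received an injection of 0.9% sodium chloride into the peritoneum. BL_cisplatin mice had no preconditioning and received cisplatin, a DNA-damaging drug that injures the proximal tubule. CR_cisplatin mice received cisplatin after 4 weeks of calorie restriction. HP_cisplatin mice received cisplatin after stays in low oxygen of 2, 4 and 8 h on 3 days. Kidneys were taken 72 h after the injection, and no preconditioned group received sodium chloride. Nothing in the labels ties a library to its own mouse, and p-values here describe the spread among the libraries, which could be technical.

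Hnf4a (HNF4α) is a nuclear receptor that drives the late maturation of proximal tubule cells and binds at many genes of transport and metabolism. Ppargc1a (PGC-1α) is a coactivator without DNA binding of its own. It works through receptors such as Esrra (ERRα) to raise genes of mitochondrial respiration, on which proximal tubules depend for energy. Ppara (PPARα) switches on genes of fatty acid use when fatty acids bind it, and Rxra (RXRα) is the partner with which PPARα and FXR bind DNA. Nr1h4 encodes FXR, the bile acid receptor. Pax8 is a paired-box factor of the whole nephron lineage, so its level is not limited to the proximal tubule. Maf is a basic leucine zipper factor that is also expressed in macrophages.

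Upstream sequences are shown for the 3 genes whose annotated starts held a short motif of nuclear receptors or of cyclic AMP signalling. Capitals mark AGGTCA, the hexamer that nuclear receptors bind, and TGACGT, the core of the cyclic AMP response element, on either strand. The sequences are RefSeq's on GRCm38.p6, written 5′ to 3′ on the gene's strand, and annotated exon bases were left out.

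Ppargc1a, chr5:51567727-51567975, minus strand: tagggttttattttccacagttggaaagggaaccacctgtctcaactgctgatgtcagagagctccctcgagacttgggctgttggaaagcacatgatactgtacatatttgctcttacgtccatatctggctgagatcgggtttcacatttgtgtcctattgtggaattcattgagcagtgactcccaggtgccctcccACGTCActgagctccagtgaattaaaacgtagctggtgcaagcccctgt
Rxra second start, chr2:27709042-27709291, plus strand: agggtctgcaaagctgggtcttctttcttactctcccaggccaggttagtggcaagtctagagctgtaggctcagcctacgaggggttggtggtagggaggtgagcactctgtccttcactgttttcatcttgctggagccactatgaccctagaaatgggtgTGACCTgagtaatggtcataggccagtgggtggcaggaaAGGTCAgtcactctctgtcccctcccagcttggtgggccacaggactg
Nr1h4, chr10:89506659-89506908, minus strand: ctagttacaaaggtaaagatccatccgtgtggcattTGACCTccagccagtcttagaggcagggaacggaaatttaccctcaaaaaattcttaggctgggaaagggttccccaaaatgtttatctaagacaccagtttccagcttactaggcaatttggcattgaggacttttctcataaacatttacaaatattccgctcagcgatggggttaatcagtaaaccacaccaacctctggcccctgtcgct

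Ppargc1a held TGACGT on its reverse strand, 50 to 45 bases before the start. The second start of Rxra held AGGTCA in 2 copies, on the reverse strand 87 to 82 bases and on the forward strand 48 to 43 bases before it. Nr1h4 held AGGTCA on the reverse strand 214 to 209 bases before the RefSeq start used here. That start lies inside the gene as GENCODE M21 places it, chr10:89454234-89533585, and not at its 5′ end. Sequences were found for 7 of the 8 genes, with 9 windows of 250 bases before the start. Among all 32851 such windows, 14.0% held AGGTCA and 6.47% held TGACGT, against 2 and 1 of the 9. The longer ERR motif TCAAGGTCA, which contains AGGTCA, was in 0.387% of all windows. The HNF4 motif CAAAGTCCA was in 0.384%. Neither of these was in any of the 9 windows. GGGCGG, the GC box, was in 32.7% of all windows and in 5 of the 9. Esrra, Ppara and the first start of Rxra lay in GC-rich sequence, with 68.4%, 76.4% and 81.2% G and C and 22, 27 and 40 CG steps, against medians of 52.4% and 6 over all windows. These matches are letters in a window and were not tested as binding sites.

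Read counts recovered from the deposited values ranged from 54194365 to 69010084 per library. For 7 of the 8 genes, all but Esrra, whole reads could be recovered, from 1512 for Ppargc1a to 39543 for Hnf4a per library, so that counting error alone was at most 2.57%. Transcripts of the proximal tubule were abundant where no cisplatin was given: 30 transport, endocytosis and enzyme genes summed to 10058 to 12068 transcripts per 1000000 transcripts (TPM) in the vehicle libraries. HP_cisplatin 4 and HP_cisplatin 1 stood apart from their group, at opposite ends. Over all 120 pairs of libraries and 9757 genes, the median squared difference between read counts was 1.67 times counting noise for HP_cisplatin 4 and CR_cisplatin 4, against 3.71 for the next closest pair. This pair carries labels of different groups. Whether the pair shares a source or either label is wrong was not tested, so HP_cisplatin and CR_cisplatin values rest on the labels as given. HP_cisplatin 1 lay closer to the 4 BL_cisplatin libraries (6.17 to 12.5 times counting noise) than to any other HP_cisplatin library (17.1 to 76.5). Tests and list counts of HP_cisplatin are therefore given with and without HP_cisplatin 4, and without HP_cisplatin 1 where that changes a call or moves a called value by over 1.5 times. Sample titles carry 2 prefixes: BL_cisplatin and CR_cisplatin 1 share the first, and the other 11 libraries share the second. BL_cisplatin and BL_vehicle, or BL_cisplatin and HP_cisplatin, therefore cannot be told apart from the prefix, and CR_cisplatin 1 is the single library that links them.

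In vehicle kidneys Hnf4a was by far the most abundant of the 8, at 188 ± 11.7 TPM (SD, n = 4), a unit that corrects for transcript length. Nr1h4 followed with 56.6 ± 20.4 and Esrra with 44.6 ± 1.57, and the ranges of these overlapped. Ppara (30.8), Rxra (30.4), Maf (28.8) and Pax8 (25.4) followed, each overlapping its neighbour in the order, and Ppargc1a was lowest at 17.1 ± 1.82. The order changed in cisplatin kidneys. Hnf4a (46.3), Nr1h4 (42.9), Pax8 (40.05) and Ppara (35.7) formed the upper group of overlapping ranges in BL_cisplatin, above Esrra (21.9) and Rxra (21.4), with Maf (8.11) and Ppargc1a (7.46) lowest. In CR_cisplatin the order of the first 3 was again Hnf4a (172.6), Nr1h4 (59.3) and Esrra (45.4), without overlap. In HP_cisplatin every range overlapped the next in the order. Without HP_cisplatin 4, Ppara (44.8 to 49.0 TPM) stood above Pax8 (27.7 to 42.9 TPM) without overlap.

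**Figure D1:**
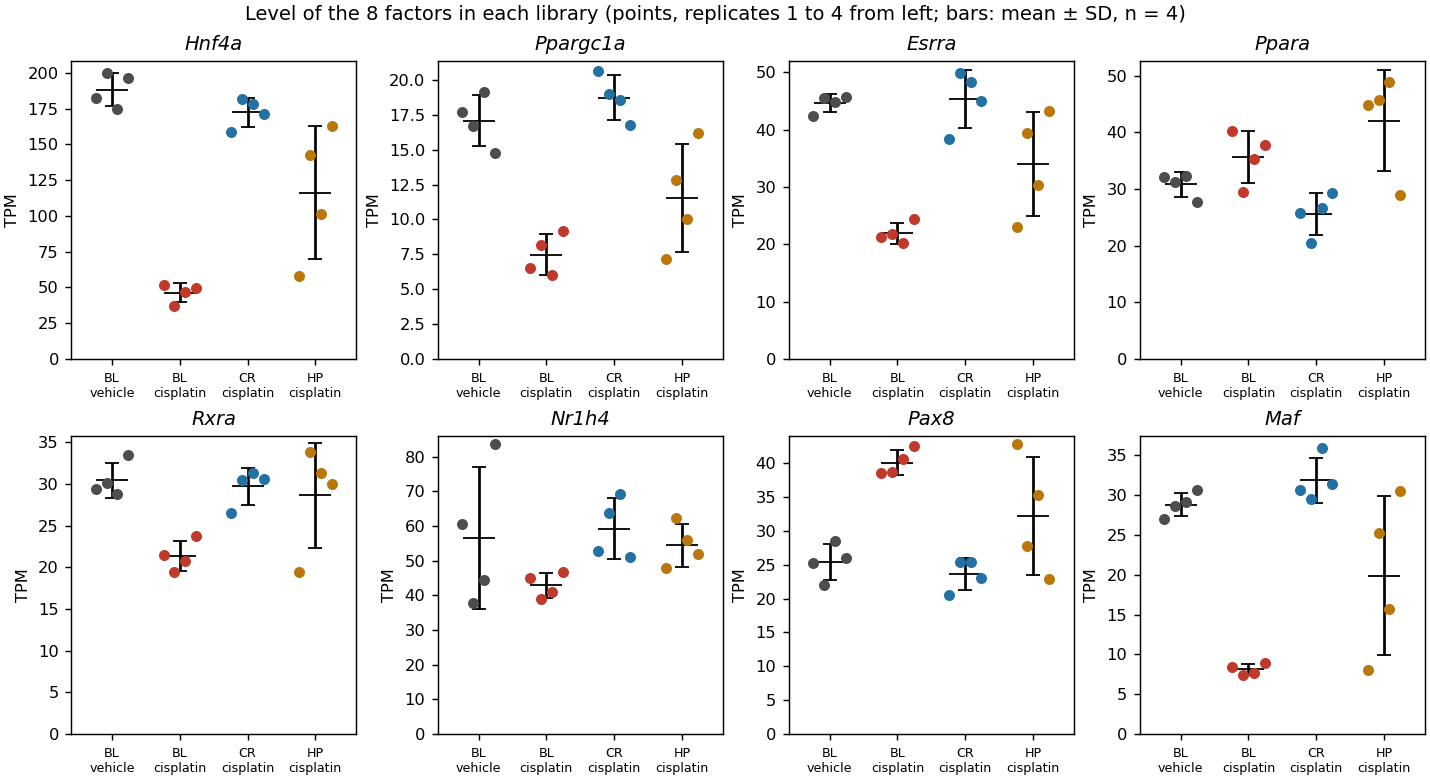
Level of each factor in TPM (y axis, from 0) in the 4 libraries of each group (x axis); points are libraries, bars are mean ± SD. The 4 BL_cisplatin points of Hnf4a lie between 36.8 and 52.0 TPM, those of vehicle between 175 and 199.7, and the HP_cisplatin points spread from 58.1 to 162.9.

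Cisplatin without preconditioning, set against vehicle, asks what the drug does to these factors. Of the 8, 5 were lower in BL_cisplatin (Hnf4a, Maf, Ppargc1a, Esrra and Rxra), 1 was higher (Pax8), and Ppara and Nr1h4 did not pass the test. Changes were frequent in this comparison: limma called 66.8% of the 15014 genes tested, 28.8% lower and 38% higher. The 6 of 8 called is near that background, and the median log2 fold change was -0.74 for the 8 against 0.08 for all genes tested. Whole tissue was measured, so fewer cells of a type and less RNA per cell cannot be told apart.

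Hnf4a stood at 182, 199.7, 175 and 197 TPM in the vehicle libraries and at 52.0, 36.8, 46.9 and 49.4 TPM in BL_cisplatin. The groups did not overlap, as was so for 63.5% of all genes tested, and the vehicle mean was 4.07 times the BL_cisplatin mean. On the log2(TPM + 1) scale used for all tests the difference was -2.01 ± 0.23 (SE; limma, adjusted p = 4.18e-05).
Maf stood at 27.0, 28.6, 29.1 and 30.6 TPM in vehicle and at 8.45, 7.43, 7.66 and 8.90 TPM in BL_cisplatin. Each cisplatin library was below every vehicle library, with a log2 fold change of -1.71 ± 0.27 (SE; limma, adjusted p = 0.000106). Maf is also a gene of macrophages, whose markers moved in both directions: of 9 tested, Cd14, Cd68 and Itgam were higher and Csf1r and Adgre1 lower, and the 10 listed markers summed to 112 to 129 TPM in BL_cisplatin and 41.6 to 57.6 TPM in vehicle. The part of macrophages in the level of Maf was not tested.

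The coactivator and its receptor fell together. Ppargc1a stood at 17.7, 16.7, 19.1 and 14.8 TPM in vehicle and at 6.49, 8.19, 6.00 and 9.15 TPM in BL_cisplatin, a log2 fold change of -1.11 ± 0.18 (SE; limma, adjusted p = 0.000158). Esrra stood at 42.4, 45.6, 44.8 and 45.8 TPM in vehicle and at 21.2, 21.8, 20.3 and 24.4 TPM in BL_cisplatin, a log2 fold change of -0.996 ± 0.15 (SE; limma, adjusted p = 8.88e-05). For both genes every cisplatin library was below every vehicle library. Rxra, the shared dimer partner, fell less: it stood at 29.3, 30.05, 28.8 and 33.5 TPM in vehicle and at 21.5, 19.4, 20.8 and 23.7 TPM in BL_cisplatin. Its log2 fold change was -0.49 ± 0.13 (SE; limma, adjusted p = 0.00463), again without overlap. With the title prefix as a term, which rests on CR_cisplatin 1, Esrra was at -0.69 (limma, adjusted p = 0.0833) and Rxra at -0.28 (limma, adjusted p = 0.411), and neither passed.

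Pax8 moved the other way. It stood at 25.2, 22.0, 28.5 and 25.95 TPM in vehicle and at 38.5, 38.6, 40.5 and 42.5 TPM in BL_cisplatin, so that each cisplatin library was above every vehicle library. The log2 fold change was 0.64 ± 0.15 (SE; limma, adjusted p = 0.00164). Pax2, its close relative in the nephron lineage, was also higher, by 0.40.

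Ppara and Nr1h4 were not called. Ppara stood at 32.1, 31.2, 32.2 and 27.7 TPM in vehicle and at 40.2, 29.4, 35.4 and 37.8 TPM in BL_cisplatin, where 3 of the 4 libraries were above all vehicle libraries and BL_cisplatin 2 was within their range. Its difference was 0.20 on the log2 scale, with a 95% confidence interval of -0.13 to 0.53 (limma, adjusted p = 0.260).
Nr1h4 was the least even of the 8 among vehicle libraries, at 60.7, 37.7, 44.3 and 83.5 TPM, a coefficient of variation of 36.1% where counting error was at most 1.73%. In BL_cisplatin it stood at 44.9, 38.8, 41.1 and 46.7 TPM, inside the vehicle range. The difference was -0.33, with an interval of -0.74 to 0.08 (limma, adjusted p = 0.143), and without BL_vehicle 2 it was -0.50 (limma, adjusted p = 0.0262), which passed.

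**Figure D2:**
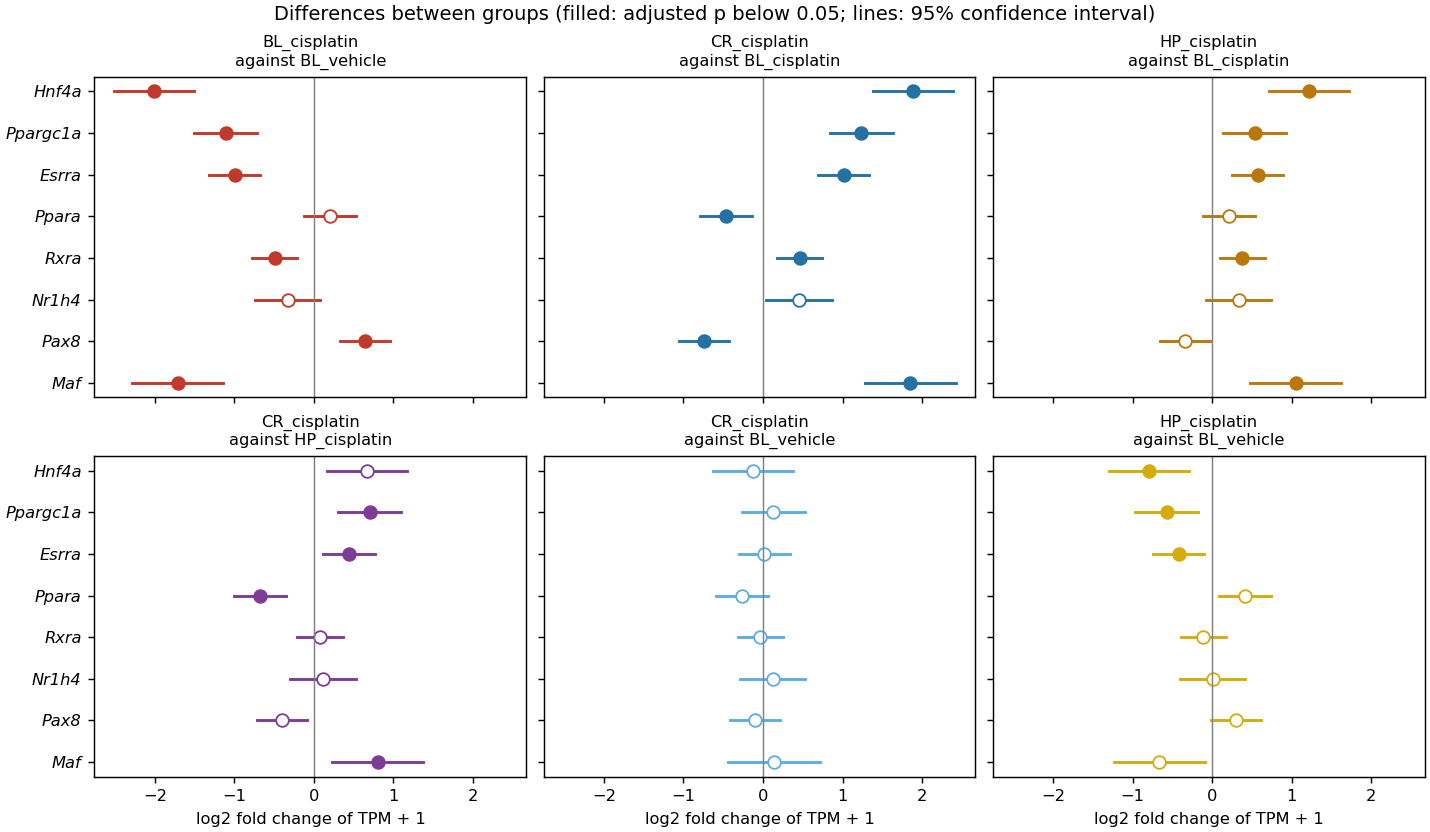
Log2 fold change of TPM + 1 (x axis) of the 8 factors (y axis) in the 6 comparisons, first group minus second; filled points have a limma adjusted p below 0.05 and lines are 95% confidence intervals. Against vehicle, Hnf4a and Maf lie lowest in BL_cisplatin at -2.01 and -1.71, Pax8 lies at 0.64, and in CR_cisplatin all 8 intervals include 0.

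Genes were counted in a list of proximal tubule transport, endocytosis and enzyme genes. Textbook targets of PGC-1α with ERRα, of PPARα and of FXR were counted as well. The proximal tubule list was not drawn up as targets of the factors. Of 30 proximal tubule genes, 29 were lower in BL_cisplatin and none higher, with a median log2 fold change of -3.01. The endocytic receptor Lrp2 (megalin) fell from 498 to 51.3 TPM, the organic anion transporters Slc22a6 and Slc22a8 from 230.5 to 23.4 and from 112 to 2.91 TPM, and the dicarboxylate transporter Slc13a3 from 147 to 25.7 TPM. Slc7a8 was the single member not called, at -0.14. Of 26 genes of respiration and mitochondrial upkeep listed under PGC-1α and ERRα, 22 were lower and none higher, with a median of -0.79, and with abundant genes left out before rescaling 21 were lower and 1 higher. Among these, the mitochondrial deacetylase Sirt3 fell from 42.0 to 11.6 TPM, the complex I subunit Ndufs1 from 34.4 to 11.1, the ATP synthase subunit Atp5b from 583 to 261 and the complex III subunit Uqcrc2 from 127 to 56.3 TPM. Cs, Mdh2, Nrf1 and Cycs were not called.

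The PPARα list divided. Of 25 tested genes 11 were higher and 6 lower in BL_cisplatin, with a median of 0.34. With abundant genes left out before rescaling, 26 were tested, 15 higher and 5 lower. In the reported fit limma called 38% of all genes higher and 28.8% lower, so 11 and 6 of 25 are near the background. Pdk4, which restrains glucose oxidation, rose from 5.06 to 140 TPM, and Plin2, a lipid droplet coat protein, from 22.4 to 381 TPM. Cyp4a14, a fatty acid hydroxylase, rose by 4.86 on the log2 scale. In contrast the fatty acid transporter Slc27a2 fell from 1061 to 255 TPM and the medium-chain dehydrogenase Acadm from 176 to 47.5 TPM. Cpt1a and Cpt2, which carry fatty acids into mitochondria, were lower, with log2 fold changes of -0.59 and -0.37. The FXR list also divided, with 2 of 9 tested genes higher and 3 lower, or 3 and 2 with abundant genes left out. For so few genes the counts 2 and 3 are near the same background. The bile acid exporter subunits Slc51a and Slc51b fell from 38.2 to 4.03 TPM and from 28.3 to 13.7 TPM, and the FXR-induced repressor Nr0b2 had a log2 fold change of -0.52. Sdc1 and Apoc2 rose, by 2.25 and 2.76 on the log2 scale.

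Relatives of the 8 factors did not move as a block. Of 19 tested paralogues, partners and related receptors, 7 were higher and 9 lower, and with abundant genes left out before rescaling 8 were higher and 6 lower. Over all genes tested 38% were called higher and 28.8% lower in the reported fit. The small Maf proteins, which lack an activation domain, rose where Maf fell: Maff from 0.774 to 18.8 TPM, Mafk from 6.70 to 24.9 TPM and Mafg from 14.1 to 24.2 TPM. Pprc1, the PGC-1-related coactivator, rose from 2.27 to 6.09 TPM while Ppargc1b had a log2 fold change of -0.39. Esrrb, Esrrg and Hnf4g were lower, at -1.18, -0.51 and -0.26. Of 15 other factors of nephron segments, 6 were lower and 2 higher, or 5 and 4 with abundant genes left out. Emx1 and Irx1 fell from 15.0 to 1.75 TPM and from 14.7 to 4.04 TPM, and Lhx1 and Tfap2b were at -0.95 and -0.96. All 16 tested factors of injured or dividing epithelium were higher, with a median of 2.49. Sox4 rose from 2.62 to 28.2 TPM, Cebpb from 7.89 to 49.4 TPM, Klf6 from 10.5 to 67.4 TPM and Stat3 from 8.25 to 24.8 TPM.

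Markers of other kidney cells moved beside these genes. All 8 markers of the thick ascending limb and all 5 of the distal tubule were lower in BL_cisplatin, as were 4 of 7 of principal cells, 3 of 6 of intercalated cells and 5 of 7 of endothelium, where 1 was higher, or none with medians centred. Of 6 podocyte markers 2 were higher and 2 lower, or none lower with abundant genes left out, of 5 fibroblast markers 2 were higher, and all 4 tested red blood cell genes were lower. Beside these, limma called 66.8% of all genes tested in the reported fit, 28.8% lower and 38% higher. The counts called for principal cells, intercalated cells and podocytes are near that background. The 5 T cell markers, none of them abundant enough to test, summed to at most 1.59 TPM in any library. Summed levels were 183 to 484 TPM in BL_cisplatin and 1437 to 2480 TPM in vehicle for the thick limb, and 41.1 to 57.9 and 48.1 to 52.3 TPM for podocytes. Their part in the levels of the 8 factors was not tested.

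**Figure D3:**
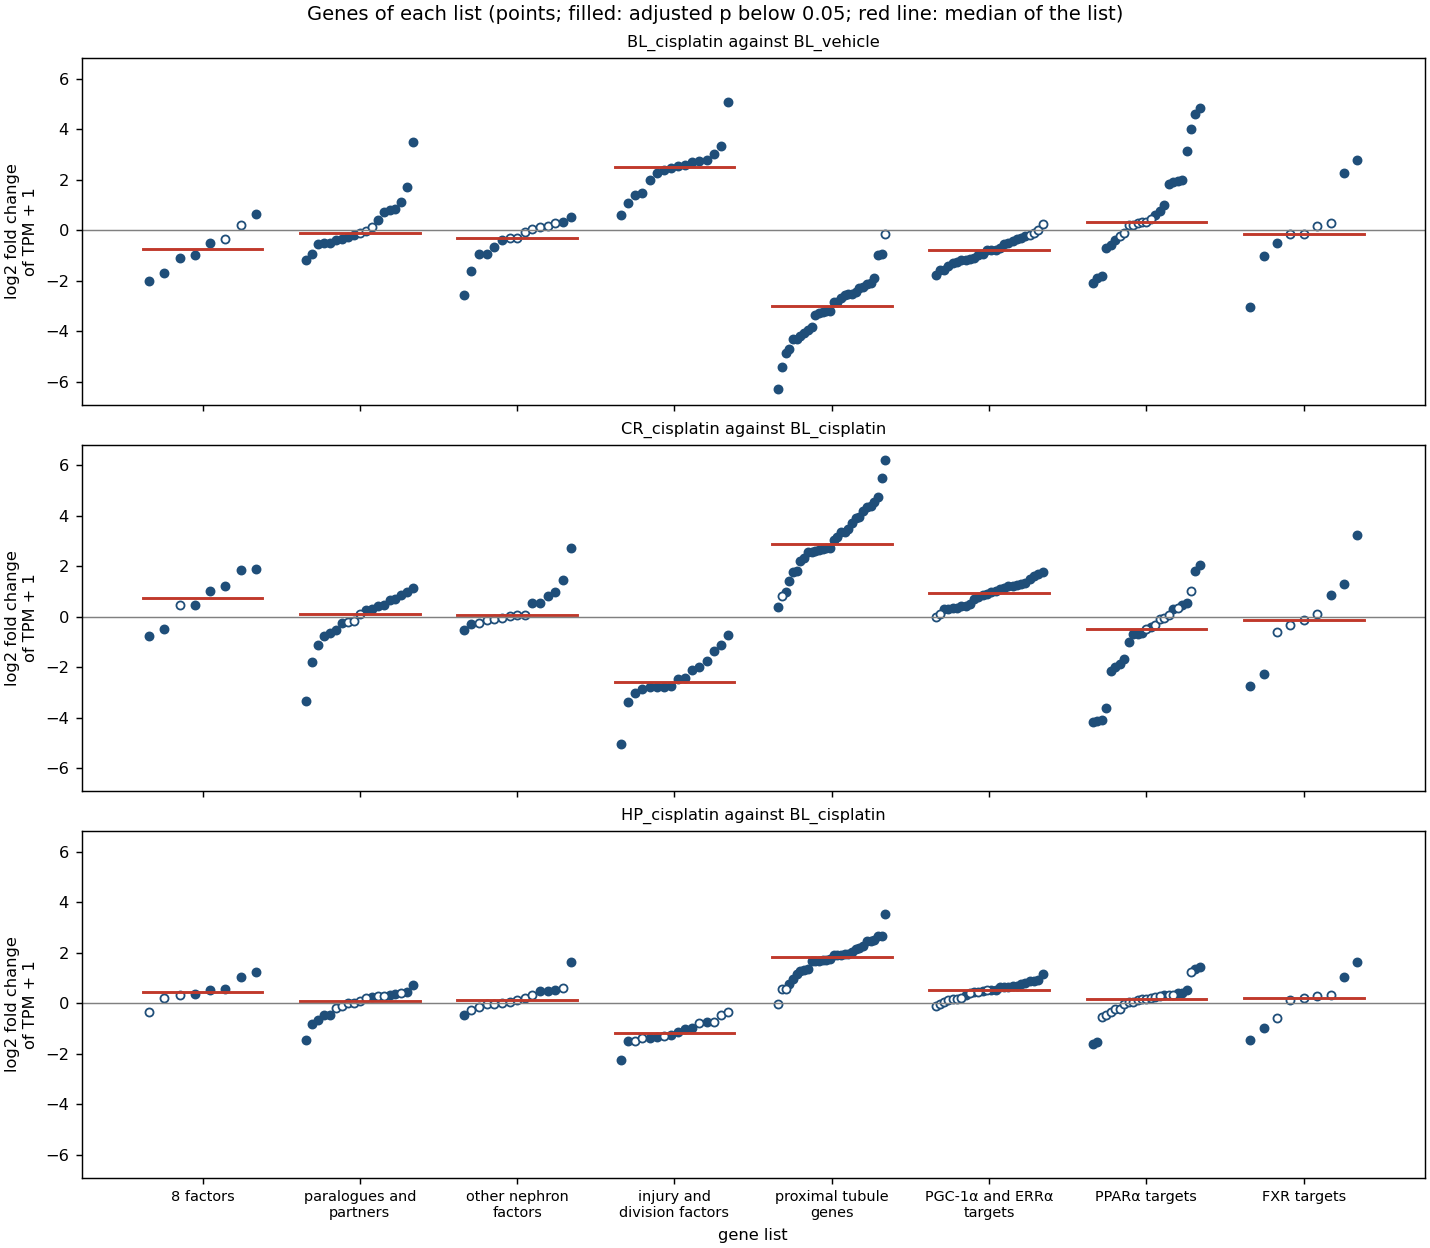
Log2 fold change of TPM + 1 (y axis) of the genes of each list (x axis, points) in 3 comparisons; filled points have a limma adjusted p below 0.05 and red lines are list medians. In BL_cisplatin against vehicle the proximal tubule genes have a median of -3.01 and the injury factors 2.49, and the PPARα targets lie on both sides of 0.

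Calorie restriction before cisplatin, set against cisplatin alone, asks whether the preconditioning changed these levels. In CR_cisplatin 5 of the 8 were higher than in BL_cisplatin (Hnf4a, Maf, Ppargc1a, Esrra and Rxra), 2 were lower (Pax8 and Ppara), and Nr1h4 was not called. Limma called 67.3% of all genes in this comparison, 29.8% higher and 37.4% lower, so 7 of 8 is again near the background. This comparison shares the BL_cisplatin libraries with the previous one.

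Hnf4a stood at 159, 182, 178 and 171 TPM in CR_cisplatin, every library above the BL_cisplatin maximum of 52.0, with a log2 fold change of 1.89 ± 0.23 (SE; limma, adjusted p = 5.83e-05). The lowest of the 4, CR_cisplatin 1, is the library that shares its title prefix with BL_cisplatin. Maf stood at 30.6, 29.5, 36.0 and 31.4 TPM, a change of 1.85 ± 0.27 (SE; limma, adjusted p = 7.97e-05). Of 9 tested macrophage markers 2 were higher in these libraries than in BL_cisplatin, 3 lower and 4 not called, with a median of -0.09. Csf1r was higher by 1.44 and Cd68 lower, at -4.44, and the macrophage markers summed to 36.6 to 59.8 TPM.

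Ppargc1a stood at 20.6, 19.0, 18.6 and 16.8 TPM and Esrra at 38.4, 49.9, 48.3 and 44.9 TPM. Their changes from BL_cisplatin were 1.23 ± 0.18 (SE; limma, adjusted p = 8.99e-05) and 1.01 ± 0.15 (SE; limma, adjusted p = 8.82e-05). No CR_cisplatin library of either gene came within the BL_cisplatin range. Rxra stood at 26.5, 30.4, 31.4 and 30.6 TPM and was higher by 0.46 ± 0.13 (SE; limma, adjusted p = 0.00715), and at 0.30 with the title prefix as a term it did not pass (limma, adjusted p = 0.258).

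Pax8 stood at 20.5, 25.4, 25.4 and 23.1 TPM, all below the 38.5 TPM of the lowest BL_cisplatin library, a change of -0.74 ± 0.15 (SE; limma, adjusted p = 0.000558). Ppara was lower too, at 25.8, 20.5, 26.6 and 29.3 TPM, just under the lowest BL_cisplatin library at 29.4. Its change of -0.47 ± 0.15 passed (SE; limma, adjusted p = 0.0142), but not without CR_cisplatin 2, the lowest library, at -0.37 (limma, adjusted p = 0.0526), nor with the title prefix as a term, at -0.44 (limma, adjusted p = 0.164). Nr1h4 stood at 52.8, 63.8, 69.3 and 51.1 TPM. These 4 libraries were all above BL_cisplatin. None of the 8 overlapped between these groups, which held for 64.8% of all genes. The Nr1h4 change of 0.45 did not pass (95% interval 0.04 to 0.86; limma, adjusted p = 0.0510). It passed with the filter of 5 TPM, with medians centred, in a fit of both groups alone, with a plain prior and without CR_cisplatin 4, BL_vehicle 2 or BL_vehicle 4, with limma adjusted p from 0.00399 to 0.0495 in these fits.

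Against vehicle none of the 8 was called in CR_cisplatin, with limma adjusted p = 1 for each and unadjusted p from 0.0996 for Ppara to 0.908 for Esrra. In that comparison limma called 0.0533% of all genes, 8 genes (0.0133% higher, 0.04% lower), and 610 had an unadjusted p under 0.05. All 8 factors overlapped between these groups, and 9.16% of all genes did not. The differences ran from -0.27 for Ppara to 0.14 for Maf. The 95% intervals left room for changes of -0.63 to 0.37 for Hnf4a and -0.44 to 0.71 for Maf, so equal levels were not shown. Their width rests on a spread per gene pooled over all 4 groups, of which HP_cisplatin was the least even for these genes. The coefficient of variation of Hnf4a was 39.9% in HP_cisplatin, 5.88% in CR_cisplatin and 6.22% in vehicle. That of Maf was 50.1%, 8.91% and 5.20%.

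The same lists were counted in the comparison with cisplatin alone. Of the 30 proximal tubule genes 29 were higher in CR_cisplatin, with a median of 2.89 and Pck1 not called, and 24 of 26 PGC-1α and ERRα genes were higher, with Nrf1 and Cycs not called. Of the 25 PPARα targets 13 were lower and 5 higher, where limma called 37.4% of all genes lower and 29.8% higher. Pdk4 and Plin2 fell from 140 to 7.56 TPM and from 381 to 21.4 TPM, and Acadm and Slc27a2 rose from 47.5 to 169.6 TPM and from 255 to 1051 TPM. Slc51a and Slc51b were higher by 3.23 and 1.28, and Maff and Mafk lower, at -3.32 and -1.78. All 16 injury factors were lower. Markers of other cells moved in this comparison as well: all 8 of the thick limb (median 2.43), all 5 of the distal tubule (3.48) and all 4 tested red blood cell genes were higher, and of 7 of endothelium 4 were higher and 1 lower, or none lower with medians centred. The red blood cell genes summed to 40.1, 51.3, 1.20 and 40.7 TPM in CR_cisplatin 1 to 4. CR_cisplatin 3 was thus inside the BL_cisplatin range of 0.353 to 1.22 TPM. The part of all these cells in the levels of the 8 factors was not tested. Against vehicle no gene of these lists was called, among 30, 26, 25, 9, 19, 15 and 16 tested.

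**Figure D4:**
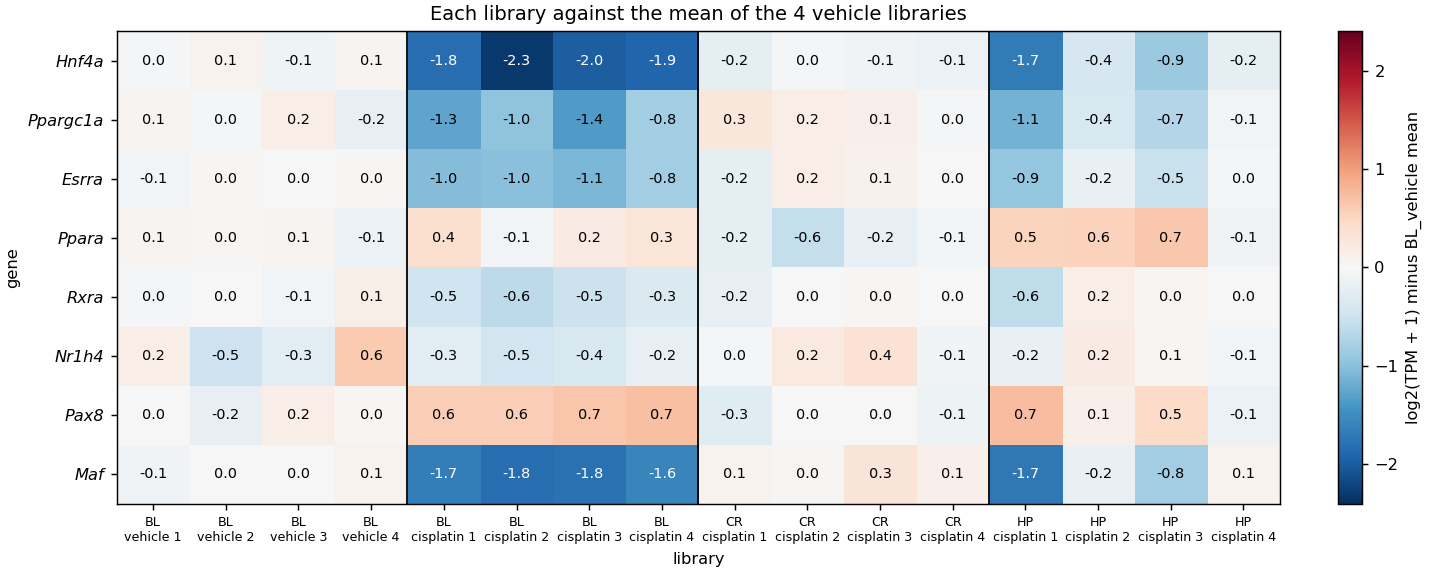
Log2(TPM + 1) of each factor (y axis) in each library (x axis) minus the mean of the 4 vehicle libraries, as colour and number. BL_cisplatin libraries are low for Hnf4a, Ppargc1a, Esrra, Rxra and Maf and high for Pax8, HP_cisplatin 1 is like them, and HP_cisplatin 4 lies between -0.21 and 0.08.

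Hypoxia before cisplatin gave libraries in which Hnf4a, Maf, Ppargc1a, Esrra, Rxra and Pax8 spread from near cisplatin alone to near vehicle. Ppara was above both groups in HP_cisplatin 1 to 3. Against BL_cisplatin 5 of the 8 were called higher (Hnf4a, Maf, Ppargc1a, Esrra and Rxra) and none lower, where limma called 29.4% of all genes, 16.4% higher and 13.1% lower. With abundant genes left out before rescaling 3 were higher (Hnf4a, Maf and Esrra) and Pax8 was lower. Without HP_cisplatin 4 these were 4: Hnf4a, Maf, Esrra and Ppara. Without HP_cisplatin 2 there were 2, and without HP_cisplatin 1 there were 6. Of the 15014 genes tested limma called 4420 with all libraries and 2883 without HP_cisplatin 4. It called 2210 without HP_cisplatin 2 and 7156 without HP_cisplatin 1. Leaving out HP_cisplatin 3, BL_cisplatin 1, 2 or 3, BL_vehicle 1, 2 or 3 or any CR_cisplatin library left 3. These fits called 2369 to 4016 genes. With a fit of the compared groups alone, or with the title prefix as a term, none of the 8 and no gene at all passed.

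Hnf4a stood at 58.1, 143, 102 and 163 TPM in HP_cisplatin 1 to 4, above every BL_cisplatin library and below every vehicle library. It was higher than in BL_cisplatin by 1.22 ± 0.23 (SE; limma, adjusted p = 0.00540), and by 1.03 without HP_cisplatin 4 (limma, adjusted p = 0.0109). This SE pools the spread of all 4 groups. The coefficient of variation of Hnf4a was 39.9% in HP_cisplatin and 14.4% in BL_cisplatin. Of the 5 called factors Hnf4a alone did not overlap with BL_cisplatin, and 15.5% of all genes did not. Maf stood at 8.08, 25.2, 15.8 and 30.5 TPM, with HP_cisplatin 1 inside the BL_cisplatin range and HP_cisplatin 4 inside that of vehicle. Its difference was 1.05 ± 0.27 (SE; limma, adjusted p = 0.0136), and 0.80 without HP_cisplatin 4 (limma, adjusted p = 0.0334).

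Ppargc1a stood at 7.16, 12.9, 10.04 and 16.2 TPM and Esrra at 23.0, 39.4, 30.3 and 43.3 TPM, in both genes with HP_cisplatin 1 inside the BL_cisplatin range. Esrra was higher by 0.57 ± 0.15 (SE; limma, adjusted p = 0.0152), and by 0.45 without HP_cisplatin 4 (limma, adjusted p = 0.0392). Ppargc1a was higher by 0.53 ± 0.18 (SE; limma, adjusted p = 0.0427), and at 0.36 without HP_cisplatin 4 it did not pass (limma, adjusted p = 0.127). Rxra stood at 19.5, 33.8, 31.3 and 29.98 TPM: HP_cisplatin 1 was at the lower end of BL_cisplatin and the other 3 were within or just above the vehicle range. Its difference of 0.38 ± 0.13 (SE; limma, adjusted p = 0.0438) did not pass without HP_cisplatin 4, at 0.35 (limma, adjusted p = 0.0981).

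Pax8 ran in the reverse order of Hnf4a, Maf, Ppargc1a and Esrra over the 4 libraries, at 42.9, 27.7, 35.3 and 23.0 TPM, and was not called against BL_cisplatin (-0.34; limma, adjusted p = 0.0912) or vehicle (0.30; limma, adjusted p = 0.132). Without HP_cisplatin 4 it was at -0.20 against BL_cisplatin (limma, adjusted p = 0.272) and higher than vehicle by 0.44 (limma, adjusted p = 0.00949). Without HP_cisplatin 1 it was lower than in BL_cisplatin, at -0.49 (limma, adjusted p = 0.00565). Nr1h4 stood at 47.8, 62.3, 56.0 and 51.8 TPM, all above BL_cisplatin, and was not called (0.33; limma, adjusted p = 0.194), nor without HP_cisplatin 4 (0.36; limma, adjusted p = 0.243).

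Ppara took a course of its own. It stood at 44.8, 45.7 and 49.0 TPM in HP_cisplatin 1 to 3, above all 12 libraries of the other groups, whose maximum was 40.2 TPM, and at 28.9 TPM in HP_cisplatin 4. Against vehicle the difference was 0.41 ± 0.15 (SE; limma, adjusted p = 0.0537), and 0.58 without HP_cisplatin 4 (limma, adjusted p = 0.00112). Against BL_cisplatin it was 0.21 (limma, adjusted p = 0.292), and 0.38 without HP_cisplatin 4 (limma, adjusted p = 0.0382). Of the 25 tested PPARα targets 13 were higher than vehicle and 1 lower, and without HP_cisplatin 4 these were 16 and 4. With medians centred they were 13 and 3. In the reported fit limma called 19.2% of all genes higher than vehicle and 10.1% lower. Of the 15014 genes tested it called 4398, and 7709 without HP_cisplatin 4. Against BL_cisplatin 6 of the 25 targets were higher and 2 lower, beside 16.4% and 13.1% of all genes. Without HP_cisplatin 4 these were 6 and 0. Cyp4a14 stood at 206, 452, 368 and 21.7 TPM in the 4 libraries against 1.89 to 24.3 TPM in vehicle. In BL_cisplatin Cyp4a14 was also higher than in vehicle, by 4.86 on the log2 scale. Pdk4 and Plin2 were lower than in BL_cisplatin with all libraries (log2 fold changes of -1.55 and -1.62), and Acadm and Slc27a2 higher, by 1.35 and 1.42. Without HP_cisplatin 4 the latter were higher by 1.14 and 1.22, and Pdk4 (-1.05) and Plin2 (-0.89) were not called.

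Against vehicle Hnf4a was lower in HP_cisplatin (log2 fold change -0.79 ± 0.23, SE; limma, adjusted p = 0.0261), Ppargc1a at -0.57 (limma, adjusted p = 0.0347) and Esrra at -0.42 (limma, adjusted p = 0.0489). These were 3 of 8, where limma called 29.3% of all genes, 10.1% lower and 19.2% higher. Hnf4a alone did not overlap between the groups, and 15.2% of all genes did not. Maf (-0.66; limma, adjusted p = 0.0725), Rxra (-0.11) and Nr1h4 (0.01) were not called. With abundant genes left out before rescaling Ppara was also called, higher. None of the 8 was called without BL_vehicle 1, BL_vehicle 2 or HP_cisplatin 3, 1 was without BL_vehicle 3, BL_vehicle 4 or HP_cisplatin 1, and 2 with any 1 BL_cisplatin or CR_cisplatin library left out. Of the 15014 genes tested these fits called 692 to 2561, 1911 to 2545 and 3621 to 4525, in that order. Without HP_cisplatin 4 the same 3 were called with Maf, at -0.99, -0.74, -0.55 and -0.91, and Ppara and Pax8 were higher. Rxra was then at -0.14 and Nr1h4 at 0.03, not called. Without HP_cisplatin 1 the differences shrank: Hnf4a was at -0.50 and still called (limma, adjusted p = 0.0422), and Maf (-0.31; limma, adjusted p = 0.178), Esrra (-0.25; limma, adjusted p = 0.134) and Ppargc1a (-0.38; limma, adjusted p = 0.0984) were not. In a fit of both groups alone, or with no filter on low values, none of the 8 was called, and with the title prefix as a term 2 were. Without HP_cisplatin 4 there were 6 of 8, and 7709 genes over the whole table. In the lists, 27 of 30 proximal tubule genes and 16 of 26 PGC-1α and ERRα genes were higher than in BL_cisplatin, and 23 and 13 without HP_cisplatin 4. Markers of other segments moved too: 7 of 8 of the thick limb and 3 of 5 of the distal tubule were higher than in BL_cisplatin (7 and 2 without HP_cisplatin 4), and 6 of 8 and 4 of 5 lower than in vehicle (7 and 5 without it). The summed proximal tubule genes stood at 1749, 7359, 4468 and 10416 TPM in the 4 libraries, thick limb markers at 443, 819, 740.2 and 1610.4 TPM, and macrophage markers at 96.8, 87.9, 86.2 and 53.6 TPM. Their part in the levels of the 8 factors was not tested.

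The preconditionings were also set against each other, which tests whether their differences from BL_cisplatin differed. Maf (0.80; limma, adjusted p = 0.0444), Ppargc1a (0.70; limma, adjusted p = 0.0279) and Esrra (0.44; limma, adjusted p = 0.0477) were higher in CR_cisplatin than in HP_cisplatin, and Ppara lower (-0.68; limma, adjusted p = 0.0275). Hnf4a (0.66; limma, adjusted p = 0.0511), Pax8 (-0.40; limma, adjusted p = 0.0583), Rxra (0.08) and Nr1h4 (0.12) did not pass. Limma called 24.3% of all genes, 9.24% higher and 15% lower. Of the 8, Ppargc1a alone did not overlap between the groups, and 9.8% of all genes did not. Without HP_cisplatin 4, the library closest to CR_cisplatin 4, 6 passed: Hnf4a at 0.86, Maf at 1.05, Ppargc1a at 0.87, Esrra at 0.57, Pax8 at -0.55 and Ppara at -0.85, with Rxra (0.11) and Nr1h4 (0.09) not called. Of the 15014 genes tested that fit called 7654, against 3642 in the reported fit. Without HP_cisplatin 1 none passed: Hnf4a was at 0.37, Maf at 0.45 (limma, adjusted p = 0.0873), Ppargc1a at 0.51, Esrra at 0.27 (limma, adjusted p = 0.127) and Ppara at -0.64 (limma, adjusted p = 0.0724). In a fit of both groups alone, with no filter on low values or with the title prefix as a term, none of the 8 and no gene was called. With any 1 BL_cisplatin or BL_vehicle library left out 2 passed, where 2712 to 3812 genes were called. Without HP_cisplatin 2 there were 5, where 3208 genes were called. Without CR_cisplatin 4 none of the 8 and no gene passed, and the same held without CR_cisplatin 1, 2 or 3 or HP_cisplatin 1 or 3.

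The genes whose pattern was most like each factor's were found by the root mean square difference of log2(TPM + 1) minus its vehicle mean over the 16 libraries, among tested genes with a symbol other than a Gm or Rik placeholder. For Hnf4a these were Tcn2, the plasma carrier of vitamin B12 (0.10), and Akr7a5, an aldehyde reductase (0.11). Maf was closest to Fahd1 (0.10) and Glb1l (0.10), Ppargc1a to Nfyc (0.10) and Pkp4 (0.10), and Esrra to Ptms (0.08) and Pex7 (0.08). Rxra was closest to Etfdh (0.07), an electron transfer enzyme of the PGC-1α list, and Fbxo9 (0.08), and Pax8 to Pak4 (0.08) and Tsc22d4 (0.08). The likest genes of Ppara, Hist2h4 (0.13) and Tmem141 (0.16), and of Nr1h4, Chsy1 (0.16) and Zkscan7 (0.17), were less close.

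Genes that overlap the 8 on the other strand bear on the counts, since the sources used here do not state whether counting used strand. Hnf4aos, an antisense RNA at chr2:163493807-163541720 on GRCm38, overlaps the Hnf4a gene but shares 0 bases of exon with it. It was lower in BL_cisplatin than in vehicle (log2 fold change -2.75; limma, adjusted p = 4.30e-05) and higher in CR_cisplatin than in BL_cisplatin (2.46; limma, adjusted p = 6.29e-05). Gm13415 shares 367 of 6061 exon bases of Pax8. It stood at 0.769 to 0.933 TPM in BL_cisplatin, 0.00861 to 0.0508 TPM in vehicle and 0.663, 0.143, 0.379 and 0.0225 TPM in HP_cisplatin 1 to 4, the direction and order of Pax8 at far lower levels, and its part in the Pax8 values was not tested. Gm15655 shares 440 of 8241 exon bases of Maf and stood at 0.79 TPM or less. Trmt112 shares 73 of 4387 exon bases of Esrra and was higher in BL_cisplatin by 0.33, opposite to Esrra. By GENCODE M21 on GRCm38, Hnf4a is at chr2:163506808-163572910, Ppargc1a at chr5:51454250-51567726, Esrra at chr19:6910977-6921813, Ppara at chr15:85734983-85802819, Rxra at chr2:27676440-27762957, Nr1h4 at chr10:89454234-89533585, Pax8 at chr2:24420560-24475599 and Maf at chr8:115682942-115707794. All 8 are protein-coding.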

How the data were processed

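RNA of 16 kidney libraries was measured per gene. The authors deposited TPM values for 46078 genes, each library summing to 1000000. The submitters' processing notes name STAR 2.5, Subread 1.5, featureCounts and the builds mm10 and GRCm38. TPM multiplied by GENCODE M21 exon length gave whole reads (within 0.001) in every library for 77.0% of 31922 genes with a value and a length, and for 7 of the 8 factors, all but Esrra. Groups follow the labels; replicate numbers follow accession order and pair nothing. Tests used limma 3.58.1 (R 4.3.3, statmod 1.5.0) on log2(TPM + 1), which understates changes of low genes, with group means over all 16 libraries, a trended robust prior, genes at 1 TPM or more in at least 4 libraries, and Benjamini-Hochberg adjustment over 15014 genes (threshold 0.05, 2-sided); the fit was tested on simulated data. Named are all 8 factors, up to 4 genes per list with the smallest adjusted p in BL_cisplatin against BL_vehicle, others where a count needs them, and the 2 likest genes per factor, where placeholder symbols were dropped after seeing them. Cyp4a14, Cpt1a, Cpt2, Pax2, Ppargc1b, Esrrb, Esrrg and Hnf4g were named after their values were seen. Members and lists were chosen with earlier results of these data known. Upstream sequences come from RefSeq (GRCm38.p6). Alternatives changed the pseudocount, filter, scaling, samples, prior, prefix term and unit (voom on recovered reads, chosen after seeing the data, as was leaving out HP_cisplatin 1 and 4).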

Additional observations from a re-analysis of the deposited data

How the results depend on the processing

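No paired analysis was possible because the labels number no replicates. Over all alternatives run, the 6 called factors of BL_cisplatin against BL_vehicle kept their direction, and 197 of 200 values kept direction and side of the threshold. For CR_cisplatin against BL_cisplatin this held for 190 of 200. Comparisons with HP_cisplatin were less stable: 161 of 208 against BL_cisplatin, 141 of 208 for CR_cisplatin against HP_cisplatin and 161 of 208 against BL_vehicle. For CR_cisplatin against BL_vehicle it was 193 of 200. The cause of the changes below was not tested, except that a filter of 5 TPM tests fewer genes and leaving out libraries or groups uses fewer samples. Called genes in BL_cisplatin against BL_vehicle numbered 10032, and 6656 with the filter of 5 TPM and 3413 with the title prefix as a term. In CR_cisplatin against BL_cisplatin they numbered 10100, and 6728 and 6327 with the same settings. In HP_cisplatin against BL_cisplatin they numbered 4420, and 0 in a fit of these groups only or under the prefix term (6560 had an unadjusted p under 0.05 in the reported fit, and voom called 5459); called factors numbered 5, and 3 without a filter and 0 in those fits. In CR_cisplatin against HP_cisplatin called genes numbered 3642, and 0 without a filter, in a fit of these groups only or under the prefix term, and 6341 with HP_cisplatin 1 and 4 both left out (6533 had an unadjusted p under 0.05 in the reported fit, and voom called 4381); called factors numbered 4, and 0 in those first 3 fits. In CR_cisplatin against BL_vehicle called genes numbered 8, and 15 without a filter and 80 with the compared groups alone. In HP_cisplatin against BL_vehicle they numbered 4398, and 11 with the compared groups alone; called factors numbered 3, 0 without a filter or with the compared groups alone, and 5 with HP_cisplatin 1 and 4 left out. Leaving out each library in turn gave 2210 to 7156 called genes and 2 to 6 factors for HP_cisplatin against BL_cisplatin, 0 to 7654 and 0 to 6 for CR_cisplatin against HP_cisplatin, 692 to 7709 and 0 to 6 for HP_cisplatin against BL_vehicle, and 4 to 17 genes for CR_cisplatin against BL_vehicle.

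Signs changed only for differences that were not called. In CR_cisplatin against HP_cisplatin, Nr1h4 was at -0.00603 and Rxra at -0.13 with HP_cisplatin 1 and 4 left out, and Rxra ran from -0.091 to 0.16 over single libraries left out. In CR_cisplatin against BL_vehicle, leaving out single libraries gave -0.029 to 0.094 for Esrra, -0.048 to 0.33 for Nr1h4 and -0.059 to 0.020 for Rxra, which was at 0.020 with the prefix term. In HP_cisplatin against BL_vehicle, Nr1h4 was at -0.088 with medians centred and -0.16 to 0.21 over single libraries left out, and Rxra at 0.10 with HP_cisplatin 1 and 4 left out and -0.20 to 0.058 over single libraries. In BL_cisplatin against BL_vehicle the median of all genes was 0.08, and 0.25 once 50 abundant genes had been left out and the rest rescaled. That setting moved the share of called genes that were higher from 56.9% to 68.7%, and centring medians gave 46.2%. For CR_cisplatin against BL_cisplatin the shares were 44.4%, 32.0% and 53.7%, for HP_cisplatin against BL_cisplatin 55.5%, 30.04% and 55.9%, for CR_cisplatin against HP_cisplatin 38.1%, 33.8% and 59.0%, and for HP_cisplatin against BL_vehicle 65.7%, 68.2% and 42.1%. No called factor changed direction under either scaling.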
